A study of Mus musculus with 23 samples.

Results

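The genes described here are 9 interferon-inducible GTPases of the mouse, Gbp2, Gbp3, Gbp4, Gbp5, Gbp6, Gbp7, Iigp1, Irgm2 and Gm4070, among the 13766 gene records of a hippocampal RNA sequencing table. They were taken by gene symbol from a given list, and all 9 symbols were found. The list was chosen by the levels measured in these same libraries, with the differences between the groups known, so the group differences of these genes are given as a description and support nothing further. Where a fit over the whole table also passed some of them, their number is printed beside the share of all genes, and nothing is read from it. Each of the 23 libraries came from the hippocampus of 1 mouse of the FCG model on a C57Bl/6J background, at about 12 months of age. FCG mice lack Sry, which directs testis formation, on the Y chromosome and may carry it on an autosome, so that sex chromosomes and gonads pass to the offspring independently. The 4 groups were XXF (XX chromosomes and ovaries, 5 libraries), XXM (XX and testes, 6 libraries), XYF (XY and ovaries, 6 libraries) and XYM (XY and testes, 6 libraries). The mice received no treatment named in the labels, and the crossed design separates differences that follow the sex chromosomes from those that follow the gonad. Cages were filled at weaning by the look of the genitalia, so cage type and gonad cannot be told apart.

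Totals ran from 10257751 to 36078221 estimated counts per library, and the 9 genes held between 18 and 248 estimated counts in any library, so counting error is a visible part of each value. Levels are CPM, the estimated counts scaled by the library's normalized total. Xist stood at 936 CPM or more in the 11 XX libraries and at 2.86 CPM or less in 11 of the 12 XY libraries. In 1 XYF library, replicate 4, it stood at 94.1 CPM. The Y-linked gene Ddx3y was at 49.2 CPM or more in every XY library and at 0.437 CPM or less in every XX library. In both XY groups 7 genes close to the distal X chromosome end, Tlr7 among them, were also higher than in XX, by a median log2 fold change of 0.97 with ovaries and 0.86 with testes. A difference that follows the sex chromosomes therefore cannot be told apart here from one that follows the higher level of these 7 genes. All 7 markers of hippocampal neurons were present, at a summed 4815 to 6507 CPM. In 7 libraries (XXF replicate 1, XXM replicates 1, 3, 4 and 5, XYF replicate 5 and XYM replicate 1) 6 markers of the choroid plexus, the tissue that secretes cerebrospinal fluid and lies against the hippocampus, summed to 1894 to 3313 CPM. In the other 16 libraries they summed to 53.5 to 204 CPM.

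Guanylate-binding proteins (GBPs) and immunity-related GTPases (IRGs) are large GTP-hydrolysing proteins that cells make after exposure to interferons, type II interferon (interferon gamma) above all. They gather on the membranes of vacuoles that hold intracellular parasites and bacteria, break them open and help to set off inflammasomes. Their transcription is classically driven by factors that bind the interferon-stimulated response element (ISRE) and the gamma-activated site (GAS) in promoters. In the brain, glia and endothelial cells can induce them. In whole tissue, more cells of a type and more RNA per cell cannot be told apart.

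The GBP genes lie in a pair of clusters. Gbp5, Gbp7, Gbp3 and Gbp2 follow one another on chromosome 3 over 141 kb, and Gbp9, Gbp4, Gbp10 and Gbp6 on chromosome 5 over 215 kb. Irgm2 lies on chromosome 11, 7.38 kb from the related gene Igtp, and Gm4070 on chromosome 7. Iigp1 stands apart from the other members. Several of these genes have close copies, and the sources used here do not say how reads were divided among copies. Sequence shared with other genes was measured as the share of 100-base windows of the longest GENCODE transcript that occur exactly in another gene. It was 0% for Gbp2 and Iigp1, 0.273% for Gbp5, 0.929% for Gbp3, 2.48% for Irgm2 and 2.88% for Gbp4. For Gbp7 it was 10.2%, nearly all of it shared with Gm43802, a pseudogene that lies inside Gbp7. For Gbp6 it was 51.3%, most of it shared with Gm43302, an annotated locus that overlaps both Gbp10 and Gbp6. Gm4070 shared 97.7% of its windows, 96.6% with Gvin1, a very large interferon-inducible GTPase that is not analysed here. The single-gene values of Gbp6 and Gm4070 are therefore uncertain, and the value called Gm4070 may hold reads of Gvin1.

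Promoter sequences in the RefSeq set (build GRCm38.p6) matched 5 of the 9 genes, and Gbp4, Gbp6, Iigp1 and Gm4070 had no entry. The 250 bases before the start site are shown here because all 5 genes held an ISRE core in this window. The core was searched on both strands as TTTC, any 2 bases and TTTC again. The sequences run 5' to 3' on the gene's strand, which is the plus strand for all 5, and capitals mark the ISRE core (for Gbp3 a pair of overlapping matches). Their positions are chr3:142620413-142620662 for Gbp2, chr3:142559794-142560043 for the first of the 2 Gbp3 promoters listed, chr3:142496684-142496933 for Gbp5, chr3:142530086-142530335 for Gbp7 and chr11:58214727-58214976 for Irgm2.
Gbp2: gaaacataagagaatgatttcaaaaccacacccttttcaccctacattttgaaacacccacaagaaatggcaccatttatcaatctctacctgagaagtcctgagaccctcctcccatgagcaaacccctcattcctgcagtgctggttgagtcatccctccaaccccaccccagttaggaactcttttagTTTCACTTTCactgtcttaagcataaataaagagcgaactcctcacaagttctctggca
Gbp3: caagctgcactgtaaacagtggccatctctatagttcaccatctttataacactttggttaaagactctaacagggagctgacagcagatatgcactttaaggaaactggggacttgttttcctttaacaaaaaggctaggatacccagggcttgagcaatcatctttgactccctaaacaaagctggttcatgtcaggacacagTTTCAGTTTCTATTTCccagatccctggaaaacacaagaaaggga
Gbp5: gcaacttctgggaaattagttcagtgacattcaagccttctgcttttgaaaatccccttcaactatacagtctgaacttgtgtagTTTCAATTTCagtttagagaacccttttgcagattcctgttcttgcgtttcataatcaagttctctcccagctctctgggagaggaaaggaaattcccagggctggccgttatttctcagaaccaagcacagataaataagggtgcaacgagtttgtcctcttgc
Gbp7: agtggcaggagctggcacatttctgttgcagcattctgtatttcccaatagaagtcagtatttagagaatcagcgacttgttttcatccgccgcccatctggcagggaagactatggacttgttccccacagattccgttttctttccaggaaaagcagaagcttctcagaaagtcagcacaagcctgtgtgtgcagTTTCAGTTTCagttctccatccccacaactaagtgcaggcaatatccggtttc
Irgm2: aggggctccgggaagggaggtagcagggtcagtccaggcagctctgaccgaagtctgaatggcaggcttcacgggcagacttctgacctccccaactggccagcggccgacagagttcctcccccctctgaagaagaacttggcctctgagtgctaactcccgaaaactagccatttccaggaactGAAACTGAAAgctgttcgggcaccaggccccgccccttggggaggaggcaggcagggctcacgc

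The ISRE core was found in 2.98% of the 32851 RefSeq promoters searched over the same 250 bases, and in 3.46% of their genes. The match began 59 bases before the start site in Gbp2, 45 in Gbp3, 53 in Gbp7 and 64 in Irgm2, and 165 in Gbp5. In Irgm2 the match lay on the strand opposite to the gene. The second Gbp3 promoter held no match. The form with AG between the TTTC parts, which is 1 case of the ISRE core, was present in Gbp3, Gbp7 and Irgm2 and in 0.207% of all promoters. The GAS core, searched as TTC, any 3 bases and GAA, was present in Gbp5, Gbp7 and Irgm2 and in 7.02% of all promoters. A match is a description of the letters and not a measured binding site. Of the related genes in the table with a promoter sequence, Irgm1, Tgtp1 and Igtp also held an ISRE core, while Irgq and 9930111J21Rik1 did not.

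**Figure D1:**
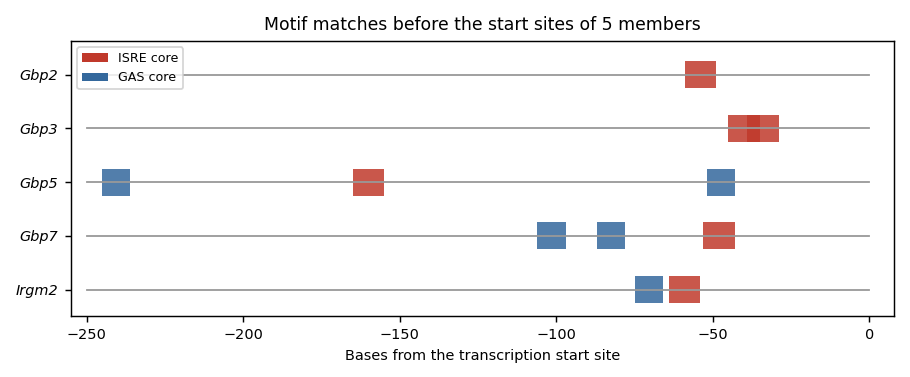
Positions of motif matches in the 250 bases before the transcription start sites of 5 members. The x axis is the distance from the start site in bases, red bars are ISRE core matches and blue bars are GAS core matches. The ISRE core lies within 64 bases of the start site in Gbp2, Gbp3, Gbp7 and Irgm2 and begins 165 bases before it in Gbp5.

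Among the chromosome 3 genes, Gbp2 (gene 14469, chr3:142620663-142638008) encodes a GTPase that coats pathogen vacuoles. In XXF its level was 5.24, 5.31, 5.15, 4.38 and 4.91 CPM. The other groups had a lowest, median and highest level of 3.32, 4.07 and 5.27 CPM in XXM, 6.51, 8.68 and 9.89 CPM in XYF, and 3.44, 3.94 and 5.96 CPM in XYM. Every XYF library lay above every library of the other 3 groups, which overlapped one another. The mean was 5.00 ± 0.377 CPM in XXF (SD, n = 5) against 8.37 ± 1.44 CPM in XYF (SD, n = 6), a log2 fold change of 0.74 ± 0.16 (SE). With testes the sex chromosome difference was 0.04 ± 0.15, and between XYM and XYF the gonad difference was -0.96 ± 0.15.

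Gbp3 (gene 55932, chr3:142560052-142573212), the neighbour of Gbp2, showed the same separation. In XXF the 5 libraries held 4.49, 5.31, 4.83, 4.46 and 4.51 CPM. The lowest, median and highest levels were 3.22, 3.49 and 4.57 CPM in XXM, 7.99, 10.4 and 11.6 CPM in XYF, and 4.07, 5.06 and 6.80 CPM in XYM. The XYF libraries again lay above all others, and the highest of the others was XYM replicate 1. The XYF mean of 10.1 ± 1.31 CPM (SD, n = 6) was 2.15-fold that of XXF by the fitted log2 fold change of 1.10 ± 0.14, and XYM stood at -0.99 ± 0.12 relative to XYF. With testes XY was higher than XX by 0.46 ± 0.13, and with XX chromosomes testes stood at -0.35 ± 0.14 relative to ovaries.

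Gbp5 (gene 229898, chr3:142496934-142522344) is known for its part in activating the NLRP3 inflammasome. Its XXF libraries held 3.95, 3.05, 3.13, 2.52 and 2.49 CPM. In the larger groups the lowest, median and highest levels were 1.79, 2.37 and 2.79 CPM in XXM, 3.53, 5.12 and 5.87 CPM in XYF, and 2.34, 2.58 and 3.32 CPM in XYM. The lowest XYF library lay below XXF replicate 1, so these groups overlapped, while XYF and XYM did not. The log2 fold change was 0.69 ± 0.16 for XYF over XXF, 0.19 ± 0.15 for XYM over XXM and -0.87 ± 0.15 for XYM over XYF.

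Gbp7 (gene 229900, chr3:142530338-142550083) is known to bind the autophagy protease Atg4b. The XXF libraries held 6.89, 7.08, 5.98, 6.79 and 6.92 CPM. For the groups of 6, the lowest, median and highest levels were 3.69, 5.32 and 5.72 CPM in XXM, 7.44, 8.47 and 10.9 CPM in XYF, and 5.12, 5.63 and 6.73 CPM in XYM. XYF lay above all other libraries, and XXF lay above all of XXM. The sex chromosome differences of Gbp7 were the smallest of the cluster on the log2 scale with ovaries, at 0.35 ± 0.12, and stood at 0.20 ± 0.11 with testes. Its gonad differences were -0.57 ± 0.11 in XY and -0.41 ± 0.12 in XX.

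On chromosome 5, Gbp4 (gene 17472, chr5:105115767-105139586) had XYF and XXF levels that overlapped widely. The 5 XXF libraries held 4.04, 3.74, 2.74, 2.52 and 3.14 CPM. The lowest, median and highest levels were 1.29, 1.88 and 2.44 CPM in XXM, 2.98, 3.48 and 6.00 CPM in XYF, and 1.75, 2.18 and 3.32 CPM in XYM. Only XYF replicate 1 and XYF replicate 5 lay above the highest XXF library, and every XXF library lay above every XXM library. The gonad difference was nearly the same on both backgrounds, -0.79 ± 0.21 in XX and -0.77 ± 0.20 in XY, and so was the sex chromosome difference, 0.28 ± 0.21 with ovaries and 0.30 ± 0.20 with testes.

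Gbp6 (gene 100702, chr5:105270702-105293699), with its uncertain share of reads, had a different low group. Its XXF libraries held 2.89, 1.77, 2.85, 2.30 and 3.14 CPM. Lowest, median and highest, the larger groups stood at 2.48, 3.39 and 3.63 CPM in XXM, 5.51, 7.48 and 13.3 CPM in XYF, and 2.12, 2.98 and 6.73 CPM in XYM. The highest XYF and XYM values were those of XYF replicate 5 and XYM replicate 1, both rich in choroid plexus markers. XYF over XXF was 1.60 ± 0.26 on the log2 scale and XYM over XYF was -1.16 ± 0.24. For XXM over XXF the log2 value was 0.30 ± 0.26, opposite in sign to that of the other GBP members. Without the 7 choroid plexus rich libraries XYF over XXF was 1.43.

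Among the IRG genes, Iigp1 (gene 60440), also called Irga6, is an effector that loads onto parasite vacuoles. XXF stood at 2.40, 2.66, 2.63, 1.81 and 2.66 CPM. By lowest, median and highest library, the levels were 0.981, 1.5 and 2.45 CPM in XXM, 3.92, 6.56 and 9.17 CPM in XYF, and 1.79, 2.40 and 3.95 CPM in XYM. XYF lay above all XXF and XXM libraries and met XYM only at its lowest library, XYF replicate 1, which fell just under XYM replicate 1. The XYF libraries themselves spread from 3.92 to 9.17 CPM. XYF over XXF was 1.42 ± 0.25 on the log2 scale, XYM over XXM 0.65 ± 0.23 and XYM over XYF -1.28 ± 0.23, the largest gonad difference of the 9 genes in XY animals.

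Irgm2 (gene 54396, chr11:58214977-58222783) belongs to the regulatory IRGs, which hold the effectors inactive on the cell's own membranes. Its XXF libraries held 4.40, 4.92, 4.61, 4.00 and 6.04 CPM. The lowest, median and highest levels were 3.54, 4.63 and 5.98 CPM in XXM, 6.32, 7.64 and 10.1 CPM in XYF, and 4.29, 5.55 and 7.24 CPM in XYM. XXF and XXM covered nearly the same range, with a log2 gonad difference in XX of 0.00 ± 0.16. In XY it was -0.51 ± 0.15, and XYF over XXF was 0.75 ± 0.16. Irgm2 thus had the smallest gonad difference averaged over sex chromosomes of the 9 genes, -0.25 ± 0.11.

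Gm4070 (gene 100042856, chr7:105895119-105953967) had the opposite balance. The XXF levels were 5.91, 6.69, 6.96, 5.94 and 8.53 CPM. For the groups of 6, the lowest, median and highest levels were 3.65, 4.29 and 5.21 CPM in XXM, 6.09, 7.70 and 10.4 CPM in XYF, and 3.74, 4.61 and 5.53 CPM in XYM. Both groups with ovaries lay above both groups with testes with no overlap. The log2 gonad difference was -0.63 ± 0.14 in XX and -0.77 ± 0.13 in XY, and the sex chromosome difference was 0.22 ± 0.14 with ovaries and 0.08 ± 0.13 with testes. It was the lowest sex chromosome difference of the 9 genes with ovaries.

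**Figure D2:**
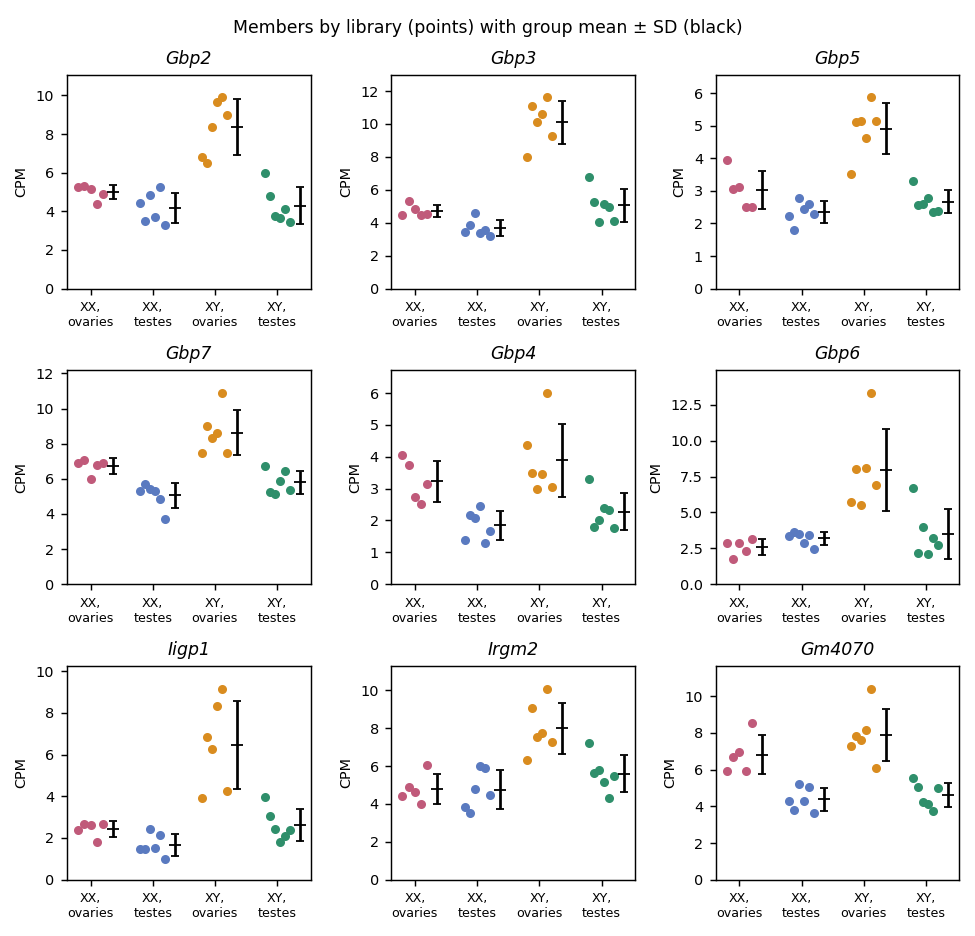
Level of each of the 9 genes in CPM (y axis, from 0) by group (x axis). Each point is 1 library, in replicate order within its group, and the black mark with bars is the group mean ± SD (n = 5 for XX with ovaries, n = 6 for the others). For Gbp2, Gbp3 and Gbp7 all 6 libraries of XY with ovaries lie above every other library, and for Gm4070 both groups with ovaries lie above both groups with testes.

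Set in order of mean level, XYF came first for 9 of 9 genes, where 26.8% of all genes had their highest mean in XYF. XXM came last for 8 of them, and for Gbp6 XXF came last. The second place went to XXF for Gbp2, Gbp4, Gbp5, Gbp7 and Gm4070 and to XYM for Gbp3, Gbp6, Iigp1 and Irgm2. Neighbours in this order overlapped in nearly every case. The exceptions were the first and second place for Gbp2, Gbp3 and Gbp7 and, for Gm4070, XXF in the second place against XYM.

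Counted over the list, all 6 XYF libraries lay above all 17 others for 3 of 9 genes, against 0.0726% of all genes. They lay above all XXF libraries for 6 (all but Gbp4, Gbp5 and Gm4070), against 0.552%, and above all XYM libraries for 5 (Gbp2, Gbp3, Gbp5, Gbp7 and Gm4070), against 0.182%. All XXF libraries lay above all XXM libraries for Gbp4, Gbp7 and Gm4070, against 0.421% of all genes. All XYM libraries lay above all XXM libraries for 0 of 9, against 0.225%. The list was chosen with these libraries known, so nothing is read from the counts.

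A fit over the whole table with edgeR's quasi-likelihood test called genes at a Benjamini-Hochberg adjusted p under 0.05. For the members these calls rest on the same levels that chose them, so they are counted as a description and are no test. For the sex chromosome effect (the mean of XY minus XX in both gonad types) the members' median log2 fold change was 0.44, against 0.00 over all genes, and 9 of 9 were positive. The largest were Iigp1 (1.03), Gbp6 (0.87), Gbp3 (0.78) and Irgm2 (0.50), and the number called was 4, beside 0.283% of all genes (0.24% higher and 0.0436% lower). For the gonad effect (the mean of testes minus ovaries in XX and in XY) the members' median was -0.62 with 9 of 9 negative, the nearest to 0 being Irgm2 (-0.25) and Gbp6 (-0.43). The number called was 7, beside 0.16% of all genes (0.145% lower and 0.0145% higher). Both effects contain the XYF libraries with opposite signs, so they are not independent of each other.

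In animals with ovaries, XYF over XXF had a member median of 0.74, against 0.01 over all genes, and called 5 of the 9, beside 0.291% of all genes (0.262% higher and 0.0291% lower). In animals with testes, XYM over XXM had a member median of 0.20 and values from 0.04 (Gbp2) to 0.65 (Iigp1), all positive in this fit. There 0 of 9 were called, beside 0.116% of all genes (0.0872% higher and 0.0291% lower). An unadjusted p under 0.05 was reached by 2 of the 9 with edgeR, DESeq2 and limma voom alike, and by 728, 759 and 878 of all 13766 genes. The positive sign did not hold in every setting tried. XYM over XXM ran from -0.08 to 0.24 for Gbp2 and from -0.17 to 0.39 for Gbp6. Without the choroid plexus rich libraries it was -0.10 for Gbp6. In XY animals, XYM over XYF had a member median of -0.87 and called 7 of the 9, beside 0.225% of all genes. In XX animals, XXM over XXF had a member median of -0.37 and values from -0.79 (Gbp4) to 0.30 (Gbp6), with 0 members and 0 of all genes called by edgeR. At an unadjusted p under 0.05 were 5, 6 and 5 of the 9 with edgeR, DESeq2 and limma voom, and 1061, 1084 and 1091 of all genes. These 4 comparisons share groups, each is given for its own values, and the choice of the list used the same levels.

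The counts of called members moved with single libraries. At its lowest the sex chromosome effect called 2 in place of 4, when XXF replicate 2 or XXF replicate 4 was left out. Each of these fits called 35 of all genes in place of 39. At its lowest XYF over XXF called 3 in place of 5, without XXF replicate 2, 3 or 4 or XYF replicate 5. There 32, 36, 34 and 34 of all genes were called in place of 40. Single calls were lost in more fits. Of the 23 that leave out 1 library, the call of Irgm2 for the sex chromosome effect held in 7. The call of Gbp2 for XYF over XXF held in 14.

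**Figure D3:**
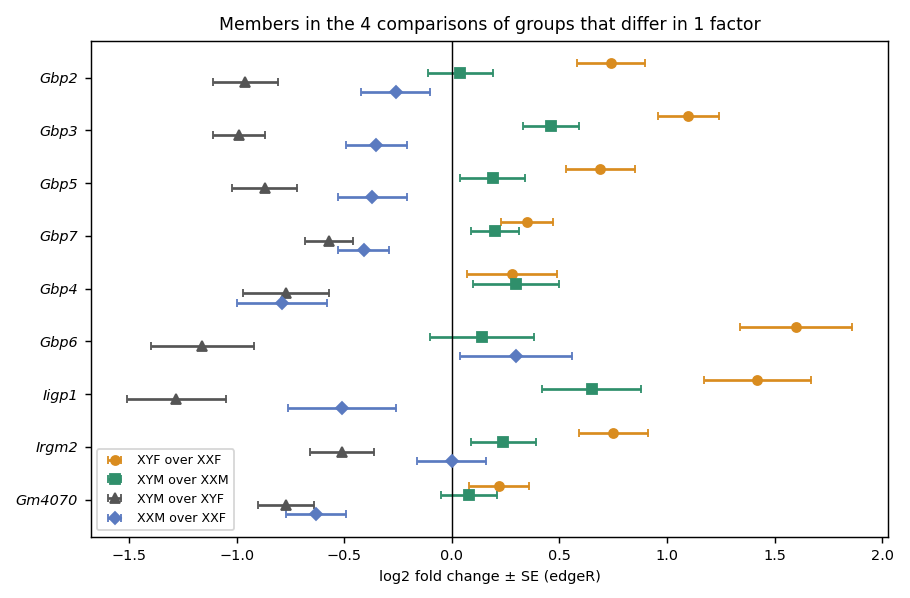
Log2 fold change ± SE from edgeR (x axis) of the 9 genes (y axis) in the 4 comparisons of groups that differ in 1 factor. Orange circles are XYF over XXF, green squares XYM over XXM, grey triangles XYM over XYF and blue diamonds XXM over XXF. Gbp6 and Iigp1 have the largest orange values, at 1.60 and 1.42, while Gbp4 and Gm4070 have grey and blue values close to each other.

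The interaction asks whether the gonad difference in XY animals differs from that in XX animals. It is built from the same group levels that chose the list, and a high XYF level alone turns it negative, so it is a description here as well. The log2 interaction was -1.46 ± 0.36 for Gbp6, -0.77 ± 0.34 for Iigp1, -0.70 ± 0.22 for Gbp2, -0.64 ± 0.18 for Gbp3, -0.51 ± 0.22 for Irgm2 and -0.50 ± 0.22 for Gbp5. It was -0.16 ± 0.17 for Gbp7, -0.14 ± 0.19 for Gm4070 and 0.02 ± 0.29 for Gbp4. The interaction was thus negative for 8 of 9 genes and furthest from 0 for Gbp6. Without the 7 choroid plexus rich libraries, which leaves 2 XXM libraries, it was 0.19 for Gm4070, -0.03 for Gbp7 and -0.14 for Gbp4. It was then -0.24 for Irgm2, -0.36 for Iigp1, -0.42 for Gbp5, -0.49 for Gbp2, -0.63 for Gbp3 and -1.53 for Gbp6. With all libraries, edgeR called 0 of 9 members and 0% of all genes, and DESeq2 and limma voom also called 0. At an unadjusted p under 0.05 were 6, 6 and 5 members with edgeR, DESeq2 and limma voom, and 444, 452 and 415 of all genes. Without XYM replicate 1, the choroid plexus rich XYM library, edgeR called 1 member and 3 of all 13766 genes. The value of Gbp6 was then -1.77.

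Between libraries of the same group the 9 genes shared a highest library in XYF and XYM, but not in XXF and XXM. In XXF and in XXM no library was highest for more than 4 of the 9 genes. How often a library was highest over all genes was not counted. XYF replicate 5 was the highest of the 6 XYF libraries for 9 of 9 genes, and XYM replicate 1 the highest of the 6 XYM libraries for 9 of 9. The members' mean log2 CPM was 3.24 in XYF replicate 5 against 2.54 to 2.89 in the other XYF libraries, and 2.43 in XYM replicate 1 against 1.79 to 1.91. Each was the only choroid plexus rich library of its group. In XXM, the 4 choroid plexus rich libraries had 1.63 to 1.95 and the other 2 had 1.45 and 1.64. In XXF, the 1 rich library had 2.12, inside the 1.86 to 2.14 of the others. The part of choroid plexus tissue in the members' levels was not tested. The group differences are given next without the 7 rich libraries. The 16 libraries that remain still held 53.5 to 204 CPM of choroid plexus markers.

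Without the 7 choroid plexus rich libraries, which leaves 4 XXF, 2 XXM, 5 XYF and 5 XYM, the number of members called was 2 in place of 4 for the sex chromosome effect, 3 in place of 5 for XYF over XXF, 4 in place of 7 for the gonad effect and 6 in place of 7 for XYM over XYF. With all libraries and a choroid plexus score as covariate these numbers were 6, 6, 7 and 7 in the same order. Of all 13766 genes, 24, 40, 17 and 44 were called without the rich libraries and 60, 54, 42 and 43 with the covariate. With all libraries and no covariate they were 39, 40, 22 and 31. Nothing is read from the member counts. Without those libraries XYM over XYF was -1.02 on the log2 scale for Gbp2, -1.05 for Gbp3, -1.25 for Gbp6 and -1.32 for Iigp1, each within its SE of the value with all libraries. XXM over XXF, which then rested on 2 XXM libraries, moved by more for some members, to -0.95 for Iigp1, -0.91 for Gm4070, -0.54 for Gbp2 and -0.28 for Irgm2. Gbp4 moved toward 0 instead, from -0.79 to -0.62, and Gbp6 stayed positive, at 0.28 against 0.30.

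Over all 23 libraries, which share the group differences, Pearson correlations of log2 CPM among the 36 pairs of members ran from 0.54 to 0.94 with a median of 0.80. After each group's mean was removed they ran from 0.15 to 0.82 with a median of 0.48. The highest of these was 0.82, between Iigp1 and Gm4070 on different chromosomes, and the lowest was 0.15, between Gbp2 and Gbp4. The 7 pairs that lie in 1 cluster had a median of 0.52 and the other 29 pairs 0.47.

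**Figure D4:**
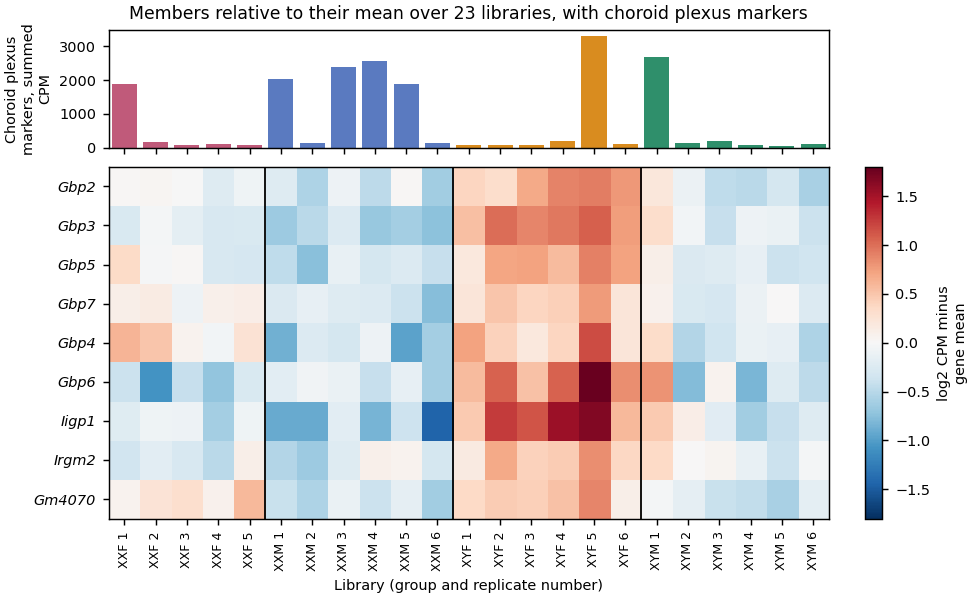
Upper panel, summed CPM of 6 choroid plexus markers in each of the 23 libraries. Lower panel, log2 CPM of each of the 9 genes minus its mean over the 23 libraries (colour scale), with black lines between groups. The 6 XYF libraries are red for all 9 genes, and XYF replicate 5 and XYM replicate 1, both high in the upper panel, are the highest of their groups for all 9.

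Markers of other cell types were read beside the members. All 7 microglia markers were in the table, and they summed to 395 to 498 CPM in XYF against 366 to 444 CPM over the other 3 groups. In XYF over XXF, 0 of the 7 were called and their median log2 fold change was 0.12. At an unadjusted p under 0.05 stood 2 by edgeR and limma voom and 3 by DESeq2. In XYM over XYF the median was -0.24, with 0 called by edgeR and limma voom, 1 by DESeq2 and 4 at an unadjusted p under 0.05 by each. The 7 endothelial markers summed to 206 to 240 CPM in XYF and 185 to 252 CPM elsewhere. Of 9 T and NK cell markers, interferon gamma itself among them, 0 were in the table, which leaves out genes low in every group. Of 5 border macrophage markers 2 were in the table, at a summed 2.15 to 7.98 CPM with overlapping groups. The 3 blood genes in the table, 2 of them haemoglobin genes, summed to 108 to 256 CPM in XYF and 55.3 to 142 CPM elsewhere. All 3 were called lower in XYM than in XYF, with a median log2 fold change of -1.08. In XYF over XXF their median was 0.67 and 0 were called. All 3 stood at an unadjusted p under 0.05 there by edgeR, DESeq2 and limma voom alike. Their part in the members' levels, and that of the microglia, was not tested.

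Of 25 further GTPases of these families, 10 were in the table. This list too was made with earlier results of these data known, so its calls are a description and no test. Gbp10 and Mx2 were listed through the XYF group alone, the only group with a raw value of 20 or more in every library, so their higher level in XYF was a condition of being listed and is not a test. Gbp10, the neighbour of Gbp6 with which it shares sequence, had a mean of 0.830 ± 0.205 CPM in the XXF libraries (SD, n = 5) and 2.43 ± 0.639 CPM in the XYF libraries (SD, n = 6), a log2 fold change of 1.56 ± 0.33. For Mx2, a dynamin-like antiviral GTPase, it was 1.5 ± 0.39. Irgm1, a regulatory IRG like Irgm2, rose by 0.64 ± 0.13 in XYF over XXF (edgeR adjusted p = 0.0150), with means of 10.2 ± 1.16 and 16.1 ± 3.23 CPM in the same groups. Igtp, a further regulatory IRG and the neighbour of Irgm2, was lower in XYM than in XYF by -0.73 ± 0.15 (edgeR adjusted p = 0.0302), at 4.64 ± 0.956 against 7.73 ± 1.38 CPM (SD, n = 6 each). The calls of Irgm1 and Igtp were each lost in some fits that leave out 1 library, and held in 19 and 14 of the 23 (adjusted p up to 0.0655 and 0.124). For both the call was lost without XYF replicate 2 and without XYF replicate 5. The call of Irgm1 was also lost with limma voom and without the choroid plexus rich libraries, while that of Igtp held in both. Counted over the 10, XYF over XXF called 2 by edgeR, 4 by DESeq2 and 1 by limma voom, Gbp10 being among them each time. Of all 13766 genes the same comparison called 40, 58 and 37 in that order.

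Apart from Gbp10, Irgm1 and Igtp, 7 of the 10 were not called by edgeR or limma voom in any of the 7 contrasts, while DESeq2 called Mx2 in XYF over XXF. For that comparison the log2 fold change was 0.48 for Gbp9 and 0.71 for Tgtp1, most of whose sequence is shared with Tgtp2. Irgq, an IRG relative that stood at 106 to 134 CPM, did not separate the groups, and F830016B08Rik, Gm4841 and 9930111J21Rik1 overlapped between all groups. Tgtp1 reached 10.9 CPM in its highest XYF library against 5.06 CPM or less in the libraries of the other groups. Its median was 2.75 CPM in XYF, 2.19 CPM in XXF, 3.87 CPM in XXM and 1.09 CPM in XYM, so XYF was not the highest group by median. Over the 10 genes, Gbp10 and Mx2 included, the median for XYF over XXF was 0.63, against 0.74 for the members and 0.01 over all genes.

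Genes of interferon signalling were read next, and the values of Usp18, Irf9, Stat2 and Irf1 are given. Usp18, which damps signalling by the type I interferon receptor, had a log2 fold change of 1.81 ± 0.32 in XYF over XXF, but it too was listed through the XYF group alone, so the value is no test. Irf9, Stat2 and Irf1 were not called in that comparison. For XYF over XXF the log2 fold change was 0.56 ± 0.16 for Irf9 (edgeR adjusted p = 0.321), 0.16 ± 0.10 for Stat2 (0.997) and 0.12 ± 0.11 for Irf1 (0.997), the factor that carries much of the type II response to GBP genes. Irf1 stood at 9.50 to 11.2 CPM as a group mean in the 4 groups, with every pair of groups overlapping. For Stat2, XYF and XXF also overlapped. For Irf9 the XYF libraries, at 14.8 CPM or more, lay above all XXF libraries (up to 13.1 CPM) and all XXM libraries (up to 13.7 CPM). They overlapped with XYM, which reached 16.2 CPM. Of all genes, 0.552% had every XYF library above every XXF library.

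Genes that lean to 1 interferon type were set beside them. Their lists were made with earlier results of these data known, so the calls are a description and no test. In XYF over XXF 0.262% of all genes were called higher by edgeR. Of 9 genes that respond mostly to type I interferon, 8 were in the table and 6 rose in XYF over XXF, Ifit1 by 1.61, Ifit3 by 1.35, Oasl2 by 1.85, Isg15 by 1.05, Rsad2 by 1.29 and Ddx58 by 0.75 (log2 fold changes, edgeR adjusted p from 9.69e-05 to 0.0126). These are antiviral effectors, sensors and modifiers. Without XXF replicate 3 or XXF replicate 5 the call of Ddx58 was lost (adjusted p up to 0.0612), and that of Rsad2 was lost in 1 of the 23 such fits (0.0521). Their list median was 1.17. Of 9 genes that respond mostly to type II interferon, 3 were in the table, Cd74, H2-Aa and H2-Eb1 of MHC class II presentation, with a median of 0.26, and H2-Aa was listed through the XYF group alone. By edgeR, DESeq2 and limma voom 0 of the 3 were called or had an unadjusted p under 0.05. Ciita, H2-Ab1, Cxcl9, Cxcl10, Ido1 and Ifi47 were not analysed here. Of 21 partners of the GTPases (autophagy genes that target them, their regulator Arhgdia and inflammasome genes), 18 were in the table. For XYF over XXF 0 of the 18 were called, with 1 at an unadjusted p under 0.05 by edgeR, DESeq2 and limma voom alike, and their median was 0.00.

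Outside the list, the 5 genes whose log2 CPM followed the members most closely over the 23 libraries were Ifit1 (mean Pearson r with the 9 members 0.84), H2-K1 (0.83), B2m (0.82), H2-D1 (0.82) and I830012O16Rik (0.82). H2-K1, H2-D1 and B2m make up MHC class I. These correlations carry the group differences. After each group's mean was removed, the closest were Tgtp1 (0.64), Sgms2 (0.63), Mfsd7c (0.62), Tns1 (0.62) and Pcolce2 (0.62). Tgtp1 is a related IRG, but its value was close to those of the others, which are not on the GTPase lists. The part of the choroid plexus rich libraries in these correlations was not tested.

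The nearest genes in the table on both sides of the member loci, other than those of the GTPase lists, were read too. Gm1966, 642 kb beyond Gm4070, may itself be a relative of the very large interferon-inducible GTPases and is given apart. Its log2 fold change was 0.74 in XYF over XXF, close to the members' median, and edgeR called it in none of the 7 contrasts. Of the other 19 neighbours 0 were called by edgeR in any of them. Their log2 fold changes ran from -0.19 to 0.15 for XYF over XXF, from -0.08 to 0.15 for the sex chromosome effect and from -0.08 to 0.21 for the gonad effect.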

How the data were processed

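Hippocampal RNA of 23 mice was sequenced from strand-specific libraries made from 500 ng of RNA, read for 100 bases from both ends, per the labels' protocols. The deposited table holds estimated counts, which need not be whole (93.3% were not, to within 0.001), and the authors' normalized values on a log2 scale. Per the file headers, a record needed a raw value of 20 or more in 100% of 1 group's libraries. Of the 9 members, 8 passed in all 4 groups and Gbp6 in 3. The submitters' processing notes list DESeq and mm10 with no role. The aligner, the counter and the use of strand were not given in the sources used here. The protocols name both a kit for messenger RNA and ribosomal RNA depletion.

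Estimated counts were rounded for the tests and scaled by TMM. edgeR (version 4.0.16) fitted 4 group means over all 13766 records in R (version 4.3.3), with 1 shared spread, 2-sided tests and Benjamini-Hochberg adjustment at 0.05. Standard errors were derived from F and the log2 fold change, and are approximate. Log2 CPM used a prior count of 2. Each library is a different animal, and replicate numbers follow accession order. The members and lists were chosen with earlier results of these data known. The genes named are the 9 members, every further GTPase of these families in the table, Stat2, Irf1, Irf9, list genes that were called, and the 5 closest genes in each likeness ranking. A gene of the signalling list that this rule names is not reported here. The distal X genes and Gm1966 were added after values were seen.

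Alternatives were DESeq2 (version 1.42.0), limma voom (limma version 3.58.1), other scalings, a mean of at least 100 counts, a choroid plexus score as covariate and each library left out. Leaving out the choroid plexus rich libraries (over 1000 summed CPM) and limma on the deposited log2 values were chosen after seeing the data. The steps were tested on simulated data, where DESeq2 made a larger share of false calls than edgeR. Its limit in that test was widened after a first run exceeded it.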

Additional observations from a re-analysis of the deposited data

Results flagged for a closer look

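In 36 sets of libraries, 9 genes in 4 groups, the highest and lowest library were compared with the nearest of the others, a check by which chance flags about 1 in 20 sets, and 2 sets stood out. Gbp6 in XYF replicate 5, at 13.3 CPM, lay far above the next XYF library. That library was also the highest of its group for the other 8 members and the only one of the group rich in choroid plexus markers, and the part of that tissue was not tested. Gbp7 in XXF replicate 3, at 5.98 CPM, lay below the 6.79 to 7.08 CPM of the other 4 XXF libraries.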

How the results depend on the processing

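No called value changed sign in the settings tried. Some values that were not called did, among them XYM over XXM of Gbp2 and Gbp6 and the interaction of Gm4070. Counts of called members moved by over 1.5 times in a few settings. With only genes of a mean of at least 100 counts, which leaves 5 of the 9 members to test, called members numbered 2 for the sex chromosome effect, 4 for the gonad effect, 3 for XYF over XXF and 4 for XYM over XYF. Of the 11853 genes kept, 33, 11, 31 and 19 were called in the same order. Without the choroid plexus rich libraries called members numbered 2, 4 and 3 for the first 3 of these comparisons, in fits with fewer libraries. Of all genes, 24, 17 and 40 were called there. Leaving out 1 library at a time gave 2 to 5 called members for the sex chromosome effect, 6 to 7 for the gonad effect (6 without XXF replicate 1), 0 to 1 for the interaction (1 without XYM replicate 1), 3 to 6 for XYF over XXF, 0 to 0 for XYM over XXM and for XXM over XXF, and 5 to 8 for XYM over XYF (8 without XYM replicate 1).

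Over all genes, the sex chromosome effect called 60 with DESeq2, 60 with the choroid plexus covariate and 24 without the choroid plexus rich libraries, in place of 39. The gonad effect called 98 with DESeq2, 11 with a mean of at least 100 counts and 42 with the covariate, in place of 22. XYM over XXM called 10 without the choroid plexus rich libraries in place of 16, XXM over XXF called 1 with DESeq2 in place of 0, and XYM over XYF called 47 with DESeq2 and 19 with a mean of at least 100 counts in place of 31. The cause of these shifts was not tested. Leaving out 1 library gave 34 to 48 genes for the sex chromosome effect, 17 to 85 for the gonad effect (85 without XXF replicate 5, 49 without XYM replicate 1, 42 without XYF replicate 1, 34 without XYF replicate 5), 0 to 3 for the interaction (3 without XYM replicate 1, 1 without XYF replicate 1), 32 to 51 for XYF over XXF, 15 to 17 for XYM over XXM, 0 to 0 for XXM over XXF and 19 to 50 for XYM over XYF (19 without XYM replicate 4, 5 or 6, 20 without XYF replicate 2 or XYM replicate 2, 50 without XYM replicate 1). The interaction called 0 genes with edgeR, DESeq2 and limma voom, with 444, 452 and 415 at an unadjusted p under 0.05, and XXM over XXF by edgeR called 0 with 1061.

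All 36 group means of the members moved by less than 1 SD without TMM factors. With a prior count of 0.5 the likeness value of Ifit1 went from 0.84 to 0.83 and that of Tgtp1 from 0.64 to 0.63. The other likeness values stayed as printed. No paired analysis was possible because the labels give each animal its own number and the groups share none.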
